A study of Homo sapiens with 18 samples.

Results

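The genes described here encode SR proteins, heterogeneous nuclear ribonucleoproteins (hnRNPs) and the CDC-like kinases (CLKs). The set was chosen with earlier results of these data known. Its members were taken by symbol: symbols that start with SRSF and a digit, symbols that start with HNRNP, and CLK1 to CLK4. These prefixes took 41 of the 23250 gene symbols listed per library, of which 12 are SRSF genes, 25 carry the HNRNP prefix and 4 are CLK genes. The RNA came from SUDHL6, Farage and SUDHL4, established lines of human diffuse large B cell lymphoma. Cells of each line were given 79-6.1085, an inhibitor of the germinal centre repressor BCL6, at 10 µM for 12 h, or DMSO, its vehicle, for 12 h. Each line gave 3 treated and 3 DMSO libraries, 18 in all. Nothing in the labels says that the 3 libraries of a group are from different cultures, and a p-value then reflects only how much these libraries vary, which may be technical.

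SR proteins bind exonic RNA through RNA recognition motifs and recruit the spliceosome through domains rich in arginine and serine. The CLKs are nuclear kinases that phosphorylate those domains, and many hnRNPs bind intronic or exonic RNA and oppose splice site use. SR genes and CLK genes are known to limit their own output through poison exons and retained introns, whose transcripts are degraded or held in the nucleus. The values here are counts per gene, so they cannot separate such transcripts from coding ones.

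All 11 SRSF genes that passed the filter on low values have at least 1 transcript typed as a target of nonsense-mediated decay in GENCODE v29, as do 11 of 19 HNRNP genes and 3 of 4 CLK genes found there by symbol. Of all 10925 protein coding genes tested, 43.8% have one. A transcript with a retained intron is annotated for 8 of 11 SRSF genes, 13 of 19 HNRNP genes and 3 of 4 CLK genes, against 59.1% of all. CLK1, CLK3 and CLK4 have 8, 8 and 7 annotated transcripts with a retained intron, while CLK2 has none of either kind.

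The promoters below belong to the 3 CLK genes that rose in all 3 lines and to the SR gene and the hnRNP gene with the largest falls in the mean of the lines. They run from 250 bases before to 50 bases after a transcript start, 5′ to 3′, from RefSeq on GRCh38.p14. Each gene is shown by 1 window, picked with its matches in view where there are 2: both CLK1 windows hold TGACG, while the other CLK3 window has 2 CCAAT matches and no TGACG. Capitals mark matches on either strand to CACGTG (an E-box), TGACG (part of a cyclic AMP response element), CCAAT and CCGGAAG (a site of ETS factors).
CLK1 (chr2:200864609-200864908, strand -): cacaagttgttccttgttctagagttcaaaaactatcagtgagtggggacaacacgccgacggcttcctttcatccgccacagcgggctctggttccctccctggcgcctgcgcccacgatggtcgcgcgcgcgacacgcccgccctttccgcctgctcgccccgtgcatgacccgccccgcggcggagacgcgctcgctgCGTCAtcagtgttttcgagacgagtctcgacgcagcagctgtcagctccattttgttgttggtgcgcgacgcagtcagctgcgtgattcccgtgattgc
CLK3 (chr15:74615586-74615885, strand +): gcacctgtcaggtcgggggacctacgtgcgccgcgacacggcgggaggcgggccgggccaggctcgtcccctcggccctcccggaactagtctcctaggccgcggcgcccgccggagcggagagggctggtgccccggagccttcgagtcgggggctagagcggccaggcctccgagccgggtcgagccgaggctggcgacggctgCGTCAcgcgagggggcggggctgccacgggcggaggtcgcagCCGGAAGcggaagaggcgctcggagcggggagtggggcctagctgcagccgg
CLK4 (chr5:178627001-178627300, strand -): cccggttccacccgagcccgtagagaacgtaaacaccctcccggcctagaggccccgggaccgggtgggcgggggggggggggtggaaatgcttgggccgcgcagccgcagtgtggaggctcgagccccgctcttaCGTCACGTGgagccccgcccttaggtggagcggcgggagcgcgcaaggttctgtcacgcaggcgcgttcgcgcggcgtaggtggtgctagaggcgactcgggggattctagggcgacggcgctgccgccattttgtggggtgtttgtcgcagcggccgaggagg
SRSF1 (chr17:58007197-58007496, strand -): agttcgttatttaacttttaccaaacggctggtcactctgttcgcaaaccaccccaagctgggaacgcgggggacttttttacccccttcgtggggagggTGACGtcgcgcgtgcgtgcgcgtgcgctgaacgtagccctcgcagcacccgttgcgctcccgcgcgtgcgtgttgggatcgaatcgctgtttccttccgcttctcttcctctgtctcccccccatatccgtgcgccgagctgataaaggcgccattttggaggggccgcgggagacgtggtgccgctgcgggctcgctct
HNRNPA3 (chr2:177212544-177212843, strand +): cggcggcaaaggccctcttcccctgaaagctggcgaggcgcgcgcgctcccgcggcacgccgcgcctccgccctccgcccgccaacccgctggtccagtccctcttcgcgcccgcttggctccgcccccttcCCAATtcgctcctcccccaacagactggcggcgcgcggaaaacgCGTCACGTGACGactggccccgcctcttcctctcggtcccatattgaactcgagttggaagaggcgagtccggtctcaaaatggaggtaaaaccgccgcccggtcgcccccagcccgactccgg
Promoters were found for 32 of the 35 members tested, as 47 windows. TGACG was in 21 of these windows (44.7%), against 24.6% of 35116 windows of all genes, and was found for 19 members, CLK1, CLK3, CLK4, SRSF1 and HNRNPA3 among them. CCAAT was in 44.7% of the members' windows against 34.6% of all, CACGTG in 17% against 7.26%, and CCGGAAG in 10.6% against 10.3%. The full element TGACGTCA was in none of the members' windows, against 1.85% of all. Matches to a heat shock element (GAANNTTC or TTCNNGAA) were in 8.51% against 13.5%, and to TATAAA in 12.8% against 11.5%. The members' windows were richer in G and C, with a median of 64% against 58.7%, and held a median of 29 CG dinucleotides against 14. The matches overlap in part, since CACGTG and TGACG share bases in CLK4 and HNRNPA3, and the part of base composition in these shares was not tested. A match is a stretch of letters and does not show that a factor binds there.

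Libraries held 6.29 M to 25.49 M reads in listed genes. Treated replicate 3 of SUDHL6 was the shallowest, and 3 reads there amount to 0.362 CPM, the deposited unit, which divides a gene's reads by the library's total. All 6 B cell markers examined were present, with a sum of 2014 to 6613 CPM. That sum averaged 2540, 2085 and 4247 CPM in treated SUDHL6, Farage and SUDHL4, against 5416, 3596 and 6419 CPM in the DMSO groups, and each of the 6 genes had a lower mean in the treated group of each line. T cell markers summed to at most 1.71, NK cell markers to 0.443 and fibroblast markers to 7.31 CPM. Myeloid markers summed to means of 2.65, 2.78 and 2.67 CPM in treated SUDHL6, Farage and SUDHL4, against 0.279, 1.93 and 0.818 CPM in the DMSO groups. Of these, CD14 averaged 1.88, 1.88 and 1.54 CPM in the treated groups, against 0.215, 0.151 and 0.16 CPM in DMSO. The other listed myeloid genes, ITGAM, CSF1R and LYZ, had lower means in treated Farage, and none was lower in treated SUDHL6 or SUDHL4. The part of the B cell or myeloid list in the members' levels was not tested. BCL6 itself, whose protein the compound inhibits, averaged 255 ± 59.7 CPM in treated and 325 ± 75.4 CPM in DMSO libraries of SUDHL6 (log2 change -0.35, adjusted p = 0.0409). It averaged 211 ± 10.9 CPM in treated and 205 ± 1.86 CPM in DMSO libraries of Farage (0.04, adjusted p = 0.814), and 233 ± 5.57 CPM in treated and 497 ± 33 CPM in DMSO libraries of SUDHL4 (-1.09, adjusted p = 4.14e-06). Its transcript does not check the labels of a treatment that acts on the protein. In bulk RNA, fewer cells of one kind and less RNA per cell cannot be told apart.

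Of the 41 members, 35 reached at least 1 CPM in at least 3 of the 18 libraries and were tested. HNRNPA1P10, HNRNPCL1 and the read-through locus HNRNPUL2-BSCL2 were listed at 0 in every library. The pseudogenes HNRNPA3P1 and HNRNPKP3 averaged 0.191 and 0.16 CPM over the 18 libraries and SRSF12 averaged 0.0721 CPM, all under the filter. HNRNPA1, HNRNPA3, HNRNPC, HNRNPK and SRSF2 have near-identical copies elsewhere in the genome, with which their reads may be split, and SRSF8 is itself an expressed retrocopy of SRSF2. HNRNPU-AS1 is antisense to HNRNPU, and with no strand setting given its reads and those of HNRNPU cannot be told apart.

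Changes are log2 fold changes of the inhibitor over DMSO on log2(CPM + 1), from limma over 12769 genes, and a gene was called at an adjusted p under 0.05. In the mean of the 3 lines 9 members rose and 22 fell, beside 30.1% of all genes called higher and 53.8% called lower. By line, 7 members rose and 19 fell in SUDHL6 (background 26.8% and 41.3%), 8 rose and 20 fell in Farage (25.4% and 46.5%), and 8 rose and 21 fell in SUDHL4 (24.3% and 46.2%). The members' shares, 25.7% higher and 62.9% lower in the mean, lie near the background, so these counts are not a result about the members as a group. The whole table leaned downward on deposited CPM: the median gene changed by -0.24 in the mean, and by -0.13 in SUDHL6, -0.22 in Farage and -0.21 in SUDHL4. The median member changed by -0.37 in the mean, and 21 of 35 members lay below the median gene. With median-of-ratios scaling, which brings the median gene to -0.05, 11 members were called higher and 18 lower in the mean (39.4% and 44.3% of all genes under that scaling), 11 and 17 in SUDHL6 (33.1% and 34.8%), 11 and 12 in Farage (33.6% and 37.2%), and 11 and 16 in SUDHL4 (34.3% and 36.1%). For that reason a member's change in the mean is mostly given with its value relative to the median gene.

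By family, in the mean, 3 of 4 CLK genes rose and 1 fell, 4 of 11 SRSF genes rose and 7 fell, and 2 of 20 HNRNP genes rose and 14 fell, with medians of 1.04, -0.35 and -0.48. With median-of-ratios scaling 3 CLK genes were higher and 1 lower, 4 SRSF genes higher and 5 lower, and 4 HNRNP genes higher and 12 lower, beside the same 39.4% and 44.3% of all genes. CLK1, CLK3, CLK4, SRSF4 and SRSF11 (14.3% of members) rose in all 3 lines, as did 14.7% of all genes. A further 14 members (40%) fell in all 3 lines, as did 28.3% of all genes. They were CLK2, SRSF1, SRSF2, SRSF7 and SRSF9, with HNRNPA2B1, HNRNPA3, HNRNPC, HNRNPD, HNRNPH1, HNRNPR, HNRNPU, HNRNPUL1 and HNRNPUL2. The calls for HNRNPA2B1, HNRNPC, HNRNPUL1 and SRSF7 in Farage, CLK2 in SUDHL4 and HNRNPR in SUDHL6 were lost under median-of-ratios scaling, and HNRNPA2B1 turned sign in SUDHL4 too. Under that scaling 8 members (22.9%) fell in all 3 lines, near the 20.7% of all genes. Those that rose in all 3 lines were 7 (20%), now with SRSF5 and SRSF6, near the 21.4% of all genes.

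CLK1, a CDC-like kinase that phosphorylates SR proteins and whose own transcript is largely kept in the nucleus with introns retained, showed the largest rise of all members. In SUDHL6, CLK1 had 424, 331 and 292 CPM in treated libraries, against 123, 105 and 86 CPM in DMSO libraries. In Farage, CLK1 had 395, 403 and 370 CPM in treated libraries, against 112, 111 and 117 CPM in DMSO libraries. In SUDHL4, CLK1 had 329, 339 and 316 CPM in treated libraries, against 71.7, 75.9 and 110 CPM in DMSO libraries. The treated libraries lay well above the DMSO libraries in each line with no overlap, and the highest DMSO value of SUDHL4 was its replicate 3. The log2 change was 1.72 (SE 0.154, adjusted p = 7.25e-08) in SUDHL6, 1.77 (SE 0.154, adjusted p = 3.64e-08) in Farage and 1.95 (SE 0.154, adjusted p = 1.23e-08) in SUDHL4. Without SUDHL4 DMSO replicate 3 the SUDHL4 change was 2.14 (adjusted p = 4.1e-09), and without SUDHL6 treated replicate 1, the highest of its group, the SUDHL6 change was 1.58 (adjusted p = 2.17e-07). In the mean it was 1.81 (SE 0.0887, adjusted p = 1.28e-11), or 2.05 relative to the median gene. No difference in its response between any 2 lines was called, the widest being -0.22 between SUDHL6 and SUDHL4 (adjusted p = 0.461).

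CLK3 rose in every line as well, by amounts that differed. In SUDHL6, CLK3 had 124, 114 and 109 CPM in treated libraries, against 59.2, 67.7 and 65.4 CPM in DMSO libraries. In Farage, CLK3 had 94.4, 93.4 and 95.6 CPM in treated libraries, against 36.9, 38.1 and 36.8 CPM in DMSO libraries. In SUDHL4, CLK3 had 151, 166 and 149 CPM in treated libraries, against 41.7, 47.4 and 57 CPM in DMSO libraries. Treated libraries were higher in each line without overlap, and SUDHL4 had both the highest treated values and the widest gap. The changes were 0.84 (SE 0.0929, adjusted p = 7.5e-07) in SUDHL6, 1.32 (SE 0.0929, adjusted p = 3.72e-09) in Farage and 1.66 (SE 0.0929, adjusted p = 3.2e-10) in SUDHL4, and 1.27 (SE 0.0537, adjusted p = 2.69e-12) in the mean (1.51 relative to the median gene). The response of SUDHL6 differed from that of SUDHL4 by -0.83 (adjusted p = 0.000173) and from that of Farage by -0.48 (adjusted p = 0.00874). Farage against SUDHL4 differed by -0.35 (adjusted p = 0.0492), a call that ended without any one of the 6 Farage libraries, any treated SUDHL4 library, SUDHL4 DMSO replicate 1 or 2, SUDHL6 DMSO replicate 2 or 3 or SUDHL6 treated replicate 2 (adjusted p = 0.0502 to 0.143). It also ended with a pseudocount of 0.25, no filter, the block of replicate numbers, edgeR and DESeq2 (adjusted p = 0.0559, 0.0597, 0.0613, 0.0569 and 0.0562).

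CLK4, the closest relative of CLK1, rose too. In SUDHL6, CLK4 had 57.1, 51.8 and 50.6 CPM in treated libraries, against 27.2, 22.2 and 24.2 CPM in DMSO libraries. In Farage, CLK4 had 44.4, 45.8 and 43.2 CPM in treated libraries, against 35.8, 34 and 35.2 CPM in DMSO libraries. In SUDHL4, CLK4 had 37.9, 39.7 and 38.6 CPM in treated libraries, against 18.9, 16.8 and 22.1 CPM in DMSO libraries. The groups did not overlap in any line, and Farage, whose DMSO libraries were the highest of the 3 lines, showed the narrowest gap. The changes were 1.09 (SE 0.0934, adjusted p = 4.88e-08) in SUDHL6, 0.34 (SE 0.0934, adjusted p = 0.00413) in Farage and 0.98 (SE 0.0934, adjusted p = 9.91e-08) in SUDHL4, and 0.80 (SE 0.0539, adjusted p = 5.27e-10) in the mean (1.04 relative to the median gene). The response of SUDHL6 exceeded that of Farage by 0.75 (adjusted p = 0.000342), and that of Farage differed from that of SUDHL4 by -0.64 (adjusted p = 0.00114).

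CLK2 ran against the other CLK genes. In SUDHL6, CLK2 had 44.4, 50.5 and 44.8 CPM in treated libraries, against 53, 65.6 and 68 CPM in DMSO libraries. In Farage, CLK2 had 26.5, 25.2 and 24.5 CPM in treated libraries, against 43.2, 43.2 and 39.5 CPM in DMSO libraries. In SUDHL4, CLK2 had 18.4, 20.6 and 18.4 CPM in treated libraries, against 26.8, 28.1 and 26.7 CPM in DMSO libraries. Every treated library lay below every DMSO library of its line. The changes were -0.40 (SE 0.0919, adjusted p = 0.000955) in SUDHL6, -0.70 (SE 0.0919, adjusted p = 3.76e-06) in Farage and -0.49 (SE 0.0919, adjusted p = 0.000157) in SUDHL4, and -0.53 (SE 0.0531, adjusted p = 7.43e-08) in the mean (-0.29 relative to the median gene). With median-of-ratios scaling the SUDHL4 call was lost (-0.20, adjusted p = 0.0714), and with edgeR those of SUDHL4 (-0.18, adjusted p = 0.114) and SUDHL6 (-0.22, adjusted p = 0.0625).

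**Figure D1:**
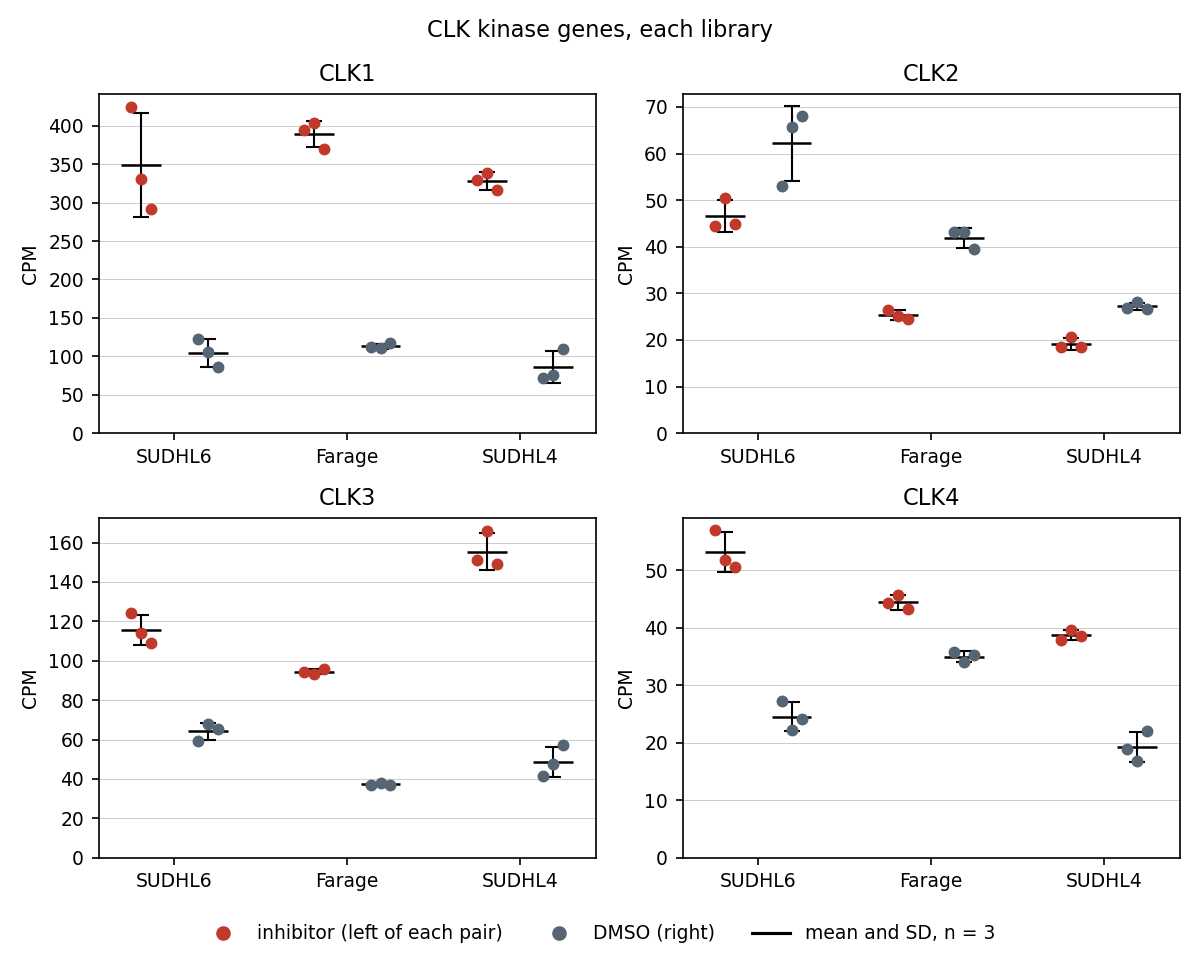
CPM of CLK1, CLK2, CLK3 and CLK4 in each of the 18 libraries, with treated libraries left of DMSO libraries in each line and bars for the mean and SD of n = 3. CLK1, CLK3 and CLK4 lie higher in every treated library than in any DMSO library of the line, as in SUDHL6, where CLK1 runs from 292 to 424 CPM treated and from 86 to 123 CPM in DMSO, while CLK2 lies lower.

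As shares of the family, given with no test, CLK1 made up 61.6 ± 3.31% of the summed CLK CPM in treated and 40.9 ± 5.84% in DMSO libraries of SUDHL6, 70.3 ± 0.845% and 49.8 ± 1.19% in treated and DMSO libraries of Farage, and 60.6 ± 0.69% and 47.1 ± 3.38% in treated and DMSO libraries of SUDHL4 (SD, n = 3 each). CLK2 made up 3.53 to 8.37% of the sum in treated groups, against 15.3 to 24.4% in DMSO groups. Per kilobase of exon, CLK1 stood at 141, 157 and 133 CPM in treated SUDHL6, Farage and SUDHL4 and at 42.4, 45.8 and 34.7 CPM in their DMSO groups. On that scale CLK4 was the lowest of the CLK genes in every DMSO group, at 4.8 to 8.72 CPM per kilobase.

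SRSF1, the prototype SR protein and a splicing factor with oncogenic activity, fell in all 3 lines and, in their mean, further than any other SR gene. In SUDHL6, SRSF1 had 276, 308 and 340 CPM in treated libraries, against 546, 568 and 605 CPM in DMSO libraries. In Farage, SRSF1 had 287, 282 and 280 CPM in treated libraries, against 629, 628 and 634 CPM in DMSO libraries. In SUDHL4, SRSF1 had 219, 221 and 230 CPM in treated libraries, against 480, 470 and 447 CPM in DMSO libraries. The treated libraries were all far below the DMSO libraries. The changes were -0.90 (SE 0.0701, adjusted p = 1.94e-08) in SUDHL6, -1.15 (SE 0.0701, adjusted p = 7.42e-10) in Farage and -1.06 (SE 0.0701, adjusted p = 1.87e-09) in SUDHL4, and -1.04 (SE 0.0405, adjusted p = 1.3e-12) in the mean (-0.80 relative to the median gene). Its share of the summed SRSF CPM was 11.5, 11.9 and 13.1% in treated SUDHL6, Farage and SUDHL4 and 19.5, 22.9 and 21.3% in the DMSO groups. Per kilobase of exon it was the highest SR gene in each DMSO group, at 179, 197 and 145 CPM, and in treated cells SRSF3 in SUDHL6 (130 against 96.3) and Farage (91.5 against 88.3) stood above it.

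SRSF2, which binds exonic enhancers and is often mutated in myeloid neoplasms, fell in each line. In SUDHL6, SRSF2 had 289, 251 and 251 CPM in treated libraries, against 363, 412 and 429 CPM in DMSO libraries. In Farage, SRSF2 had 248, 258 and 233 CPM in treated libraries, against 350, 351 and 349 CPM in DMSO libraries. In SUDHL4, SRSF2 had 147, 169 and 138 CPM in treated libraries, against 227, 238 and 229 CPM in DMSO libraries. No treated library reached the DMSO range. The changes were -0.60 (SE 0.0833, adjusted p = 8.05e-06), -0.51 (SE 0.0833, adjusted p = 4.41e-05) and -0.61 (SE 0.0833, adjusted p = 5.33e-06) in SUDHL6, Farage and SUDHL4, and -0.57 (SE 0.0481, adjusted p = 8.23e-09) in the mean (-0.34 relative to the median gene). SRSF8, its retrocopy, fell in Farage, SUDHL4 and the mean. SRSF8 in SUDHL6 had 26.1, 36.6 and 31.9 CPM in treated libraries, against 42.1, 39.4 and 29.1 CPM in DMSO libraries. SRSF8 in Farage had 35.1, 34.6 and 39.7 CPM in treated libraries, against 48.5, 50.9 and 50.5 CPM in DMSO libraries. SRSF8 in SUDHL4 had 26.1, 21.6 and 31.2 CPM in treated libraries, against 65.4, 65.3 and 60.6 CPM in DMSO libraries. The groups overlapped in SUDHL6, where DMSO replicate 3 was as low as the treated libraries, and separated in the other lines. The changes were -0.22 (SE 0.144, adjusted p = 0.198), -0.45 (SE 0.144, adjusted p = 0.0107) and -1.26 (SE 0.144, adjusted p = 7.9e-07) in SUDHL6, Farage and SUDHL4, and -0.64 (SE 0.0831, adjusted p = 1.87e-06) in the mean (-0.40 relative to the median gene). The SUDHL6 change was called without DMSO replicate 3 (-0.37, adjusted p = 0.0261), and the Farage call ended under median-of-ratios scaling (-0.21, adjusted p = 0.139). The response of SUDHL6 lay above that of SUDHL4 by 1.04 (adjusted p = 0.000948).

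SRSF7, an SR protein with a zinc knuckle that also serves mRNA export, fell in all 3 lines. In SUDHL6, SRSF7 had 159, 157 and 147 CPM in treated libraries, against 251, 246 and 270 CPM in DMSO libraries. In Farage, SRSF7 had 204, 208 and 202 CPM in treated libraries, against 256, 268 and 251 CPM in DMSO libraries. In SUDHL4, SRSF7 had 105, 126 and 87.2 CPM in treated libraries, against 211, 200 and 191 CPM in DMSO libraries. The groups stayed apart in every line, with the smallest gap in Farage. The changes were -0.73 (SE 0.096, adjusted p = 4.98e-06), -0.33 (SE 0.096, adjusted p = 0.00545) and -0.93 (SE 0.096, adjusted p = 2.44e-07) in SUDHL6, Farage and SUDHL4, and -0.66 (SE 0.0554, adjusted p = 8.12e-09) in the mean (-0.42 relative to the median gene); the Farage call ended under median-of-ratios scaling (-0.09, adjusted p = 0.479). Farage and SUDHL4 differed by 0.60 (adjusted p = 0.00248). SRSF9, a small SR protein, also fell in each line. SRSF9 in SUDHL6 had 67.1, 80.8 and 78.5 CPM in treated libraries, against 92.7, 98.6 and 96.4 CPM in DMSO libraries. SRSF9 in Farage had 34.8, 35.2 and 39.4 CPM in treated libraries, against 60.2, 63.8 and 62.8 CPM in DMSO libraries. SRSF9 in SUDHL4 had 50.5, 53.9 and 47.9 CPM in treated libraries, against 81.6, 84.5 and 72 CPM in DMSO libraries. Treated libraries were the lower ones throughout, without overlap. The changes were -0.35 (SE 0.0836, adjusted p = 0.00157), -0.76 (SE 0.0836, adjusted p = 5.7e-07) and -0.63 (SE 0.0836, adjusted p = 3.98e-06) in SUDHL6, Farage and SUDHL4, and -0.58 (SE 0.0483, adjusted p = 7.77e-09) in the mean (-0.34 relative to the median gene). With edgeR the SUDHL6 call was lost (-0.15, adjusted p = 0.0819).

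SRSF10, which represses splicing when dephosphorylated, and SRSF3, the smallest SR protein, had the smallest falls of the SR genes in the mean, and their calls there were lost under median-of-ratios scaling. In SUDHL6, SRSF10 had 163, 180 and 225 CPM in treated libraries, against 196, 206 and 252 CPM in DMSO libraries. In Farage, SRSF10 had 192, 187 and 176 CPM in treated libraries, against 220, 226 and 226 CPM in DMSO libraries. In SUDHL4, SRSF10 had 93.3, 92.3 and 97.6 CPM in treated libraries, against 141, 135 and 141 CPM in DMSO libraries. The groups overlapped in SUDHL6 and not in the other lines. The changes were -0.21 (SE 0.102, adjusted p = 0.0803), -0.28 (SE 0.102, adjusted p = 0.0221) and -0.55 (SE 0.102, adjusted p = 0.00013) in SUDHL6, Farage and SUDHL4, and -0.35 (SE 0.0588, adjusted p = 3.85e-05) in the mean (-0.11 relative to the median gene). With the block of replicate numbers the SUDHL6 change of SRSF10 was called (adjusted p = 0.00656). In SUDHL6 each treated library was below the DMSO library of the same number. Calls were lost under median-of-ratios scaling in Farage (-0.03, adjusted p = 0.797) and in the mean (-0.11, adjusted p = 0.119), and in Farage without DMSO replicate 2 or 3 or treated replicate 3 (adjusted p = 0.0529, 0.0544 and 0.0754), and with edgeR in SUDHL4 (-0.23, adjusted p = 0.0516). Leaving out SUDHL6 DMSO replicate 1 or treated replicate 3 gave a call in SUDHL6 (adjusted p = 0.0329 and 0.00314).

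SRSF3 was called in SUDHL4 and in the mean. SRSF3 in SUDHL6 had 629, 565 and 517 CPM in treated libraries, against 503, 480 and 566 CPM in DMSO libraries. SRSF3 in Farage had 391, 407 and 406 CPM in treated libraries, against 397, 435 and 410 CPM in DMSO libraries. SRSF3 in SUDHL4 had 267, 292 and 245 CPM in treated libraries, against 378, 363 and 364 CPM in DMSO libraries. The groups overlapped in SUDHL6 and Farage, and in SUDHL4 all treated libraries were lower. The changes were 0.14 (SE 0.0838, adjusted p = 0.143), -0.04 (SE 0.0838, adjusted p = 0.657) and -0.46 (SE 0.0838, adjusted p = 0.000114) in SUDHL6, Farage and SUDHL4, and -0.12 (SE 0.0484, adjusted p = 0.0293) in the mean (0.12 relative to the median gene), where median-of-ratios scaling gave the opposite sign without a call (0.12, adjusted p = 0.0645) and DESeq2 called it higher (0.13, adjusted p = 0.0413). Median-of-ratios scaling also called SRSF3 higher in SUDHL6 (0.32, adjusted p = 0.00976) and ended the call in SUDHL4 (-0.16, adjusted p = 0.168). The response of SUDHL6 lay above that of SUDHL4 by 0.60 (adjusted p = 0.000998). The call in the mean ended without SUDHL6 DMSO replicate 3 (adjusted p = 0.0623), SUDHL6 treated replicate 3 (0.0603), Farage DMSO replicate 2 (0.0605), Farage treated replicate 1 (0.0543), SUDHL4 DMSO replicate 1 (0.054) or SUDHL4 treated replicate 3 (0.0671). In SUDHL6, SRSF3 was called higher without DMSO replicate 3 (0.21, adjusted p = 0.0425) or treated replicate 3 (0.21, adjusted p = 0.0402), and without both (0.28, adjusted p = 0.0078).

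The SR genes that rose were SRSF4, SRSF5 and SRSF6, which share a pair of RNA recognition motifs with SRSF1, and SRSF11, a partner of the splice site factor U2AF. In SUDHL6, SRSF4 had 173, 181 and 174 CPM in treated libraries, against 124, 137 and 131 CPM in DMSO libraries. In Farage, SRSF4 had 164, 162 and 172 CPM in treated libraries, against 136, 135 and 131 CPM in DMSO libraries. In SUDHL4, SRSF4 had 136, 145 and 136 CPM in treated libraries, against 99.6, 105 and 102 CPM in DMSO libraries. Every treated library was above the DMSO libraries of its line. The changes were 0.43 (SE 0.0571, adjusted p = 5.64e-06), 0.30 (SE 0.0571, adjusted p = 0.00017) and 0.44 (SE 0.0571, adjusted p = 3.05e-06) in SUDHL6, Farage and SUDHL4, and 0.39 (SE 0.033, adjusted p = 8.97e-09) in the mean (0.63 relative to the median gene). SRSF11 in SUDHL6 had 309, 280 and 314 CPM in treated libraries, against 278, 264 and 267 CPM in DMSO libraries. SRSF11 in Farage had 300, 303 and 294 CPM in treated libraries, against 245, 237 and 237 CPM in DMSO libraries. SRSF11 in SUDHL4 had 253, 255 and 243 CPM in treated libraries, against 200, 202 and 212 CPM in DMSO libraries. The groups did not overlap, though in SUDHL6 the gap between the lowest treated and the highest DMSO library was only a few CPM. The changes were 0.16 (SE 0.0575, adjusted p = 0.023), 0.32 (SE 0.0575, adjusted p = 0.000108) and 0.29 (SE 0.0575, adjusted p = 0.000251) in SUDHL6, Farage and SUDHL4, and 0.26 (SE 0.0332, adjusted p = 1.87e-06) in the mean (0.49 relative to the median gene). The SUDHL6 call ended without DMSO replicate 2 or 3 or treated replicate 1 or 3 of that line (adjusted p = 0.0673, 0.0537, 0.0642 and 0.085), without both replicate 3 libraries (0.132), and with only SUDHL6 in the fit (0.138).

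SRSF6 had its widest gap in SUDHL6. In SUDHL6, SRSF6 had 435, 307 and 331 CPM in treated libraries, against 217, 210 and 198 CPM in DMSO libraries. In Farage, SRSF6 had 259, 264 and 246 CPM in treated libraries, against 196, 196 and 194 CPM in DMSO libraries. In SUDHL4, SRSF6 had 172, 184 and 154 CPM in treated libraries, against 148, 155 and 153 CPM in DMSO libraries. The groups overlapped in SUDHL4 alone, and treated replicate 1 of SUDHL6 was the highest of all. The changes were 0.76 (SE 0.1, adjusted p = 4.72e-06), 0.39 (SE 0.1, adjusted p = 0.00241) and 0.16 (SE 0.1, adjusted p = 0.176) in SUDHL6, Farage and SUDHL4, and 0.43 (SE 0.0577, adjusted p = 2.44e-06) in the mean (0.67 relative to the median gene). Without SUDHL6 treated replicate 1 the SUDHL6 change was 0.61 (adjusted p = 2.53e-06) and the SUDHL4 change, through the shared spread, was called (0.16, adjusted p = 0.0445). Median-of-ratios scaling also called it in SUDHL4 (0.46, adjusted p = 0.00301). The responses of SUDHL6 and SUDHL4 differed by 0.60 (adjusted p = 0.00359).

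SRSF5 rose in Farage and SUDHL4. SRSF5 in SUDHL6 had 291, 243 and 220 CPM in treated libraries, against 258, 227 and 211 CPM in DMSO libraries. SRSF5 in Farage had 272, 281 and 257 CPM in treated libraries, against 201, 186 and 180 CPM in DMSO libraries. SRSF5 in SUDHL4 had 230, 226 and 225 CPM in treated libraries, against 172, 176 and 193 CPM in DMSO libraries. The groups overlapped in SUDHL6, where values in both groups were highest in replicate 1, and were apart in Farage and SUDHL4. The changes were 0.11 (SE 0.0947, adjusted p = 0.32), 0.51 (SE 0.0947, adjusted p = 0.000141) and 0.33 (SE 0.0947, adjusted p = 0.00505) in SUDHL6, Farage and SUDHL4, and 0.32 (SE 0.0547, adjusted p = 4.5e-05) in the mean (0.55 relative to the median gene). With median-of-ratios scaling it was also called in SUDHL6 (0.29, adjusted p = 0.027).

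**Figure D2:**
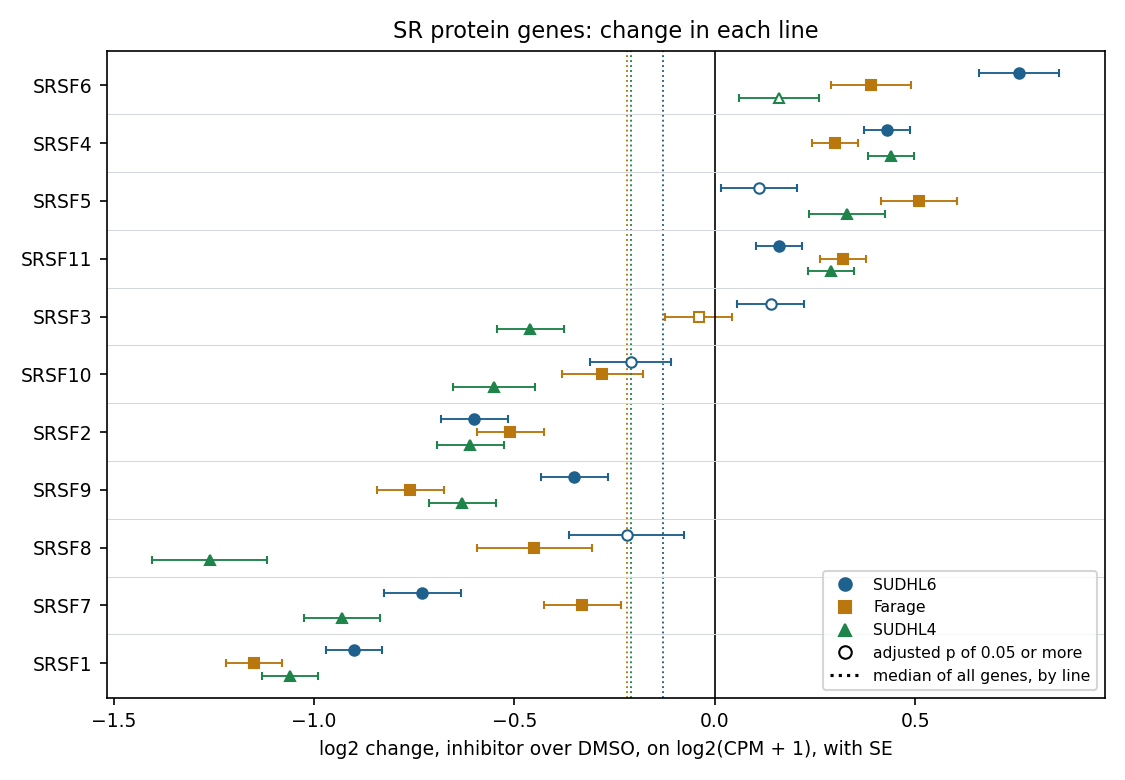
Log2 change of the inhibitor over DMSO for the 11 SRSF genes tested, with 1 marker per line and bars for the SE of the model; open markers had an adjusted p of 0.05 or more, and dotted lines mark the median of all genes in each line. SRSF1 lies between -1.15 and -0.90, and SRSF4 and SRSF11 lie right of 0 in all 3 lines.

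Among the HNRNP genes, HNRNPA3 and HNRNPH1 showed the largest falls in the mean. HNRNPA3, of the A/B group of exon silencer binding proteins, fell in each line. In SUDHL6, HNRNPA3 had 73.8, 75.5 and 85 CPM in treated libraries, against 163, 147 and 208 CPM in DMSO libraries. In Farage, HNRNPA3 had 119, 121 and 106 CPM in treated libraries, against 220, 211 and 225 CPM in DMSO libraries. In SUDHL4, HNRNPA3 had 102, 100 and 106 CPM in treated libraries, against 221, 222 and 211 CPM in DMSO libraries. Every treated library of the 3 lines was below every DMSO library. The changes were -1.12 (SE 0.0984, adjusted p = 5.93e-08), -0.92 (SE 0.0984, adjusted p = 4.16e-07) and -1.08 (SE 0.0984, adjusted p = 6.11e-08) in SUDHL6, Farage and SUDHL4, and -1.04 (SE 0.0568, adjusted p = 4.36e-11) in the mean (-0.80 relative to the median gene). HNRNPH1, which binds runs of guanines near splice sites, fell in each line too, and no difference between lines was called. HNRNPH1 in SUDHL6 had 288, 324 and 313 CPM in treated libraries, against 585, 657 and 702 CPM in DMSO libraries. HNRNPH1 in Farage had 243, 234 and 211 CPM in treated libraries, against 467, 450 and 444 CPM in DMSO libraries. HNRNPH1 in SUDHL4 had 179, 189 and 172 CPM in treated libraries, against 341, 342 and 331 CPM in DMSO libraries. The groups were far apart in each line, on different levels. The changes were -1.07 (SE 0.0762, adjusted p = 8.13e-09), -0.98 (SE 0.0762, adjusted p = 1.06e-08) and -0.91 (SE 0.0762, adjusted p = 2.45e-08) in SUDHL6, Farage and SUDHL4, and -0.99 (SE 0.044, adjusted p = 4.85e-12) in the mean (-0.75 relative to the median gene).

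HNRNPR, a relative of the mRNA-binding protein SYNCRIP, fell by amounts that differed between the lines. In SUDHL6, HNRNPR had 198, 231 and 268 CPM in treated libraries, against 279, 273 and 335 CPM in DMSO libraries. In Farage, HNRNPR had 143, 156 and 159 CPM in treated libraries, against 256, 265 and 259 CPM in DMSO libraries. In SUDHL4, HNRNPR had 84.4, 84.8 and 80.8 CPM in treated libraries, against 243, 225 and 220 CPM in DMSO libraries. Treated libraries were lower without overlap, narrowly in SUDHL6 and widely in SUDHL4. The changes were -0.35 (SE 0.0969, adjusted p = 0.00422), -0.76 (SE 0.0969, adjusted p = 2.63e-06) and -1.45 (SE 0.0969, adjusted p = 2.05e-09) in SUDHL6, Farage and SUDHL4, and -0.85 (SE 0.056, adjusted p = 3.73e-10) in the mean (-0.62 relative to the median gene). The responses differed by 1.10 between SUDHL6 and SUDHL4 (adjusted p = 1.93e-05), by 0.68 between Farage and SUDHL4 (adjusted p = 0.00095) and by 0.41 between SUDHL6 and Farage (adjusted p = 0.0262). The last of these was lost under median-of-ratios scaling (adjusted p = 0.0525), and without SUDHL6 DMSO replicate 1 or 2, SUDHL6 treated replicate 3, Farage DMSO replicate 2 or Farage treated replicate 1 (adjusted p = 0.0592, 0.0662, 0.0557, 0.0541 and 0.0687). The SUDHL6 fall itself was not called with median-of-ratios scaling (-0.17, adjusted p = 0.119) or with only SUDHL6 in the fit (adjusted p = 0.0919).

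HNRNPU, a nuclear scaffold protein that binds RNA and chromatin, fell in each line, and no difference between lines was called. In SUDHL6, HNRNPU had 330, 416 and 466 CPM in treated libraries, against 599, 675 and 737 CPM in DMSO libraries. In Farage, HNRNPU had 472, 485 and 507 CPM in treated libraries, against 816, 770 and 771 CPM in DMSO libraries. In SUDHL4, HNRNPU had 207, 202 and 208 CPM in treated libraries, against 328, 339 and 314 CPM in DMSO libraries. The groups did not overlap in any line. The changes were -0.74 (SE 0.101, adjusted p = 7.23e-06), -0.69 (SE 0.101, adjusted p = 1.33e-05) and -0.67 (SE 0.101, adjusted p = 1.73e-05) in SUDHL6, Farage and SUDHL4, and -0.70 (SE 0.0583, adjusted p = 7.98e-09) in the mean (-0.46 relative to the median gene). Its relative HNRNPUL1 fell too. HNRNPUL1 in SUDHL6 had 178, 288 and 254 CPM in treated libraries, against 407, 495 and 441 CPM in DMSO libraries. HNRNPUL1 in Farage had 289, 294 and 302 CPM in treated libraries, against 417, 409 and 393 CPM in DMSO libraries. HNRNPUL1 in SUDHL4 had 207, 215 and 222 CPM in treated libraries, against 327, 340 and 303 CPM in DMSO libraries. All treated libraries were below the DMSO libraries, with treated replicate 1 of SUDHL6 the lowest. The changes were -0.92 (SE 0.124, adjusted p = 6.35e-06), -0.46 (SE 0.124, adjusted p = 0.00328) and -0.59 (SE 0.124, adjusted p = 0.00045) in SUDHL6, Farage and SUDHL4, and -0.66 (SE 0.0718, adjusted p = 2.29e-07) in the mean (-0.42 relative to the median gene); with median-of-ratios scaling the Farage call was lost (-0.22, adjusted p = 0.0789).

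HNRNPD, also called AUF1, binds AU-rich elements and promotes mRNA decay. In SUDHL6, HNRNPD had 117, 139 and 129 CPM in treated libraries, against 173, 217 and 209 CPM in DMSO libraries. In Farage, HNRNPD had 211, 208 and 229 CPM in treated libraries, against 313, 293 and 292 CPM in DMSO libraries. In SUDHL4, HNRNPD had 137, 136 and 144 CPM in treated libraries, against 244, 253 and 231 CPM in DMSO libraries. Each line kept its groups apart, the treated ones lower. The changes were -0.63 (SE 0.0844, adjusted p = 5.43e-06), -0.47 (SE 0.0844, adjusted p = 0.000102) and -0.80 (SE 0.0844, adjusted p = 3.11e-07) in SUDHL6, Farage and SUDHL4, and -0.63 (SE 0.0487, adjusted p = 2.76e-09) in the mean (-0.40 relative to the median gene).

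Of the other HNRNP genes, HNRNPUL2 fell in all 3 lines, with changes of -0.53 (adjusted p = 2.74e-05), -0.53 (adjusted p = 2.52e-05) and -0.74 (adjusted p = 6.3e-07) in SUDHL6, Farage and SUDHL4. HNRNPC, which coats nascent transcripts at uridine tracts, also fell, with changes of -0.68, -0.40 and -0.70 (adjusted p = 0.000644 in SUDHL4). HNRNPC in SUDHL6 had 189, 192 and 269 CPM in treated libraries, against 285, 308 and 463 CPM in DMSO libraries. Replicate 3 was the highest library of both of those groups. Its Farage call (adjusted p = 0.0284) was lost under median-of-ratios scaling (-0.16, adjusted p = 0.407) and without DMSO replicate 2 or 3 or treated replicate 1, 2 or 3 of Farage (adjusted p = 0.0967, 0.0598, 0.0655, 0.0608 and 0.0535), and its SUDHL6 call (adjusted p = 0.000896) with only SUDHL6 in the fit (0.0574). Per kilobase of exon, HNRNPA2B1, which reads RNA marks and shuttles mRNA, had the most counted CPM of the HNRNP genes (176 to 236 in treated and 211 to 322 in DMSO groups). HNRNPA1, whose reads may be split with near-identical copies, had 3.2 to 7.57 CPM per kilobase in treated and 4.57 to 8.86 in DMSO groups. This rank and the HNRNP sums hold only reads as counted, and the part of such splitting was not tested. HNRNPA2B1 fell in all 3 lines, with changes of -0.45 in SUDHL6, -0.21 in Farage and -0.27 in SUDHL4. In the mean it changed by -0.31 (SE 0.0454, adjusted p = 7.94e-06) but by -0.07 relative to the median gene, and with median-of-ratios scaling it was called neither in the mean (-0.07, adjusted p = 0.185) nor in Farage (0.04, adjusted p = 0.703) or SUDHL4 (0.04, adjusted p = 0.719), where the sign turned. The Farage call (adjusted p = 0.0258) also ended without DMSO replicate 1 or treated replicate 1 or 3 of Farage (0.0844, 0.0725 and 0.0566) and with no filter (0.0521), and the SUDHL6 call (adjusted p = 8.47e-05) with only SUDHL6 in the fit (0.0606).

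HNRNPA1, a repressor of exon inclusion, fell in SUDHL6 (-0.81, adjusted p = 2.68e-06) and Farage (-0.41, adjusted p = 0.00165) and changed by -0.22 (adjusted p = 0.06) in SUDHL4; the Farage call ended under median-of-ratios scaling (-0.18, adjusted p = 0.157), and the SUDHL4 change became a call without SUDHL6 DMSO replicate 1 or 3 or SUDHL6 treated replicate 3 (adjusted p = 0.0455, 0.0218 and 0.0426). HNRNPH3, of the guanine-run binding group, fell in SUDHL6 (-0.66, adjusted p = 2.46e-05) and Farage (-0.57, adjusted p = 8.67e-05), and its SUDHL4 change (-0.19, adjusted p = 0.0977) was called without SUDHL6 DMSO replicate 1 (0.0337). HNRNPA0 fell in Farage (-0.33, adjusted p = 0.00421), SUDHL4 (-0.40, adjusted p = 0.00109) and the mean (-0.24, adjusted p = 0.000511, or -0.004 relative to the median gene). With median-of-ratios scaling it was called in none of these (adjusted p = 0.425, 0.385 and 0.985). In SUDHL6, HNRNPA0 stood at 238 ± 24 CPM in treated and 238 ± 23.1 CPM in DMSO libraries (SD, n = 3 each). HNRNPA1L2, a retrocopy of HNRNPA1, fell in SUDHL4 alone (-0.63, adjusted p = 0.000686), and was called higher in SUDHL6 without treated replicate 1 (0.32, adjusted p = 0.0377) and, with median-of-ratios scaling, in SUDHL6 (0.33, adjusted p = 0.0301) and Farage (0.32, adjusted p = 0.0338). Reads of HNRNPA1 may be counted for HNRNPA1L2, and their part in these changes was not tested.

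HNRNPK, HNRNPL and HNRNPM, which bind cytosine-rich, CA-repeat and GU-rich RNA, were called in no line. HNRNPK had 439, 410 and 658 CPM in treated libraries, against 488, 465 and 741 CPM in DMSO libraries of SUDHL6, where replicate 3 was the highest of both groups. Its change there was -0.17 (adjusted p = 0.372), and the block of replicate numbers, which takes such shared deviations out, gave the same change with an adjusted p of 0.0161. HNRNPK was called lower in SUDHL6 without treated replicate 3 (-0.38, adjusted p = 0.022) and, in the mean, without that library (adjusted p = 0.00649) or SUDHL6 DMSO replicate 2 (0.044), but its change in the mean was 0.07 with median-of-ratios scaling (adjusted p = 0.507). HNRNPM averaged 451 ± 28 CPM in treated and 419 ± 49.5 CPM in DMSO libraries of SUDHL6 and changed by 0.02 in the mean. HNRNPL changed by -0.08 in the mean. Relative to the median gene HNRNPM and HNRNPL stood at 0.26 and 0.16, and median-of-ratios scaling called both higher in the mean (0.26, adjusted p = 0.000129 and 0.16, adjusted p = 0.0243) and in SUDHL4 (0.37, adjusted p = 0.00114 and 0.28, adjusted p = 0.034), and HNRNPM in SUDHL6 (0.29, adjusted p = 0.00656). HNRNPL was called lower without SUDHL6 treated replicate 3 in the mean (-0.13, adjusted p = 0.0184) and the Farage line (-0.23, adjusted p = 0.0125), and in Farage also without SUDHL6 treated replicate 1 (-0.23, adjusted p = 0.0424).

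**Figure D3:**
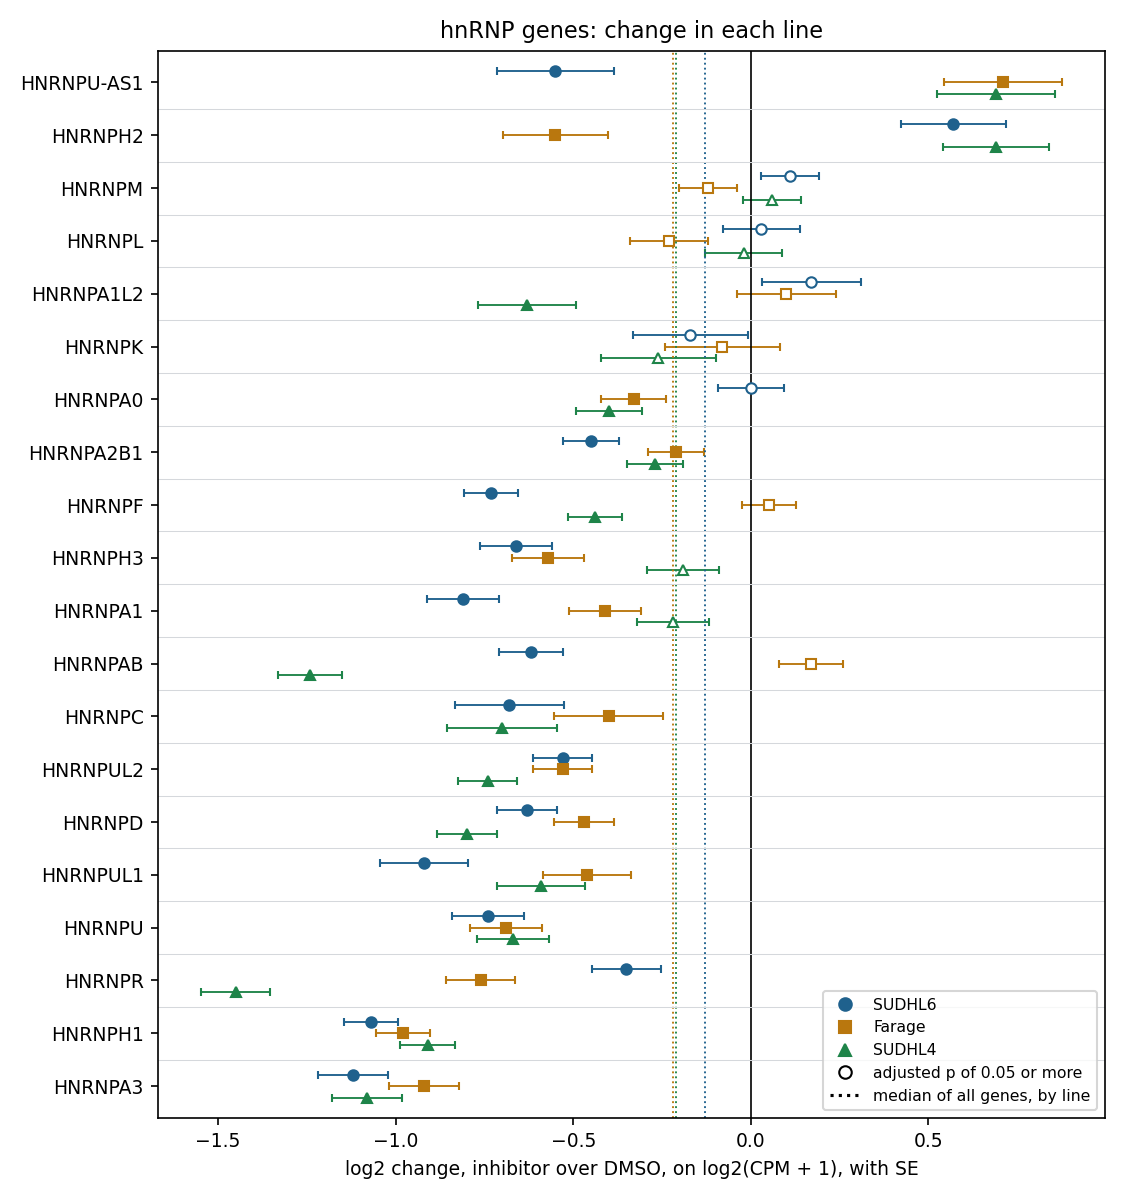
Log2 change of the inhibitor over DMSO for the 20 HNRNP genes tested, drawn as in the plot of SRSF genes. HNRNPA3 and HNRNPH1 lie between -1.12 and -0.91 in every line, while HNRNPAB, HNRNPR, HNRNPF, HNRNPH2 and HNRNPU-AS1 are spread between the lines.

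The response differed among the 3 lines for 16 of 35 members by an F-test, against 55.9% of all genes. Each pairwise difference was called for 12 members, against 36.8% of all genes for SUDHL6 minus Farage, 35% for SUDHL6 minus SUDHL4 and 37.4% for Farage minus SUDHL4, and these pairs share lines. Without Farage treated replicate 1 the count for SUDHL6 minus Farage was 7 (32% of all genes). With the block of replicate numbers that count was 18 (43% of all genes), and the F-test called 23 members (63.4% of all genes). Without the block, the members' shares of 45.7% and 34.3% lie below or near the background.

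HNRNPAB, a CArG-box and RNA-binding protein of the A/B group, gave the smallest p of the F-test (adjusted p = 9.08e-07). In SUDHL6, HNRNPAB had 191, 176 and 229 CPM in treated libraries, against 291, 306 and 317 CPM in DMSO libraries. In Farage, HNRNPAB had 310, 312 and 325 CPM in treated libraries, against 282, 289 and 269 CPM in DMSO libraries. In SUDHL4, HNRNPAB had 101, 113 and 92.3 CPM in treated libraries, against 245, 254 and 229 CPM in DMSO libraries. Treated libraries were lower in SUDHL6 and SUDHL4 and slightly higher in Farage, without overlap in each. The changes were -0.62 (SE 0.0901, adjusted p = 1.29e-05), 0.17 (SE 0.0901, adjusted p = 0.0941) and -1.24 (SE 0.0901, adjusted p = 4.79e-09) in SUDHL6, Farage and SUDHL4, and Farage exceeded SUDHL4 by 1.42 (adjusted p = 3.43e-07). With median-of-ratios scaling HNRNPAB was called higher in Farage (0.42, adjusted p = 0.00124), as it was without SUDHL6 treated replicate 3 (0.17, adjusted p = 0.0431). HNRNPF, a relative of HNRNPH1, also had its highest change in Farage, with an adjusted p of 6.49e-05 in the F-test. HNRNPF in SUDHL6 had 254, 290 and 304 CPM in treated libraries, against 436, 464 and 503 CPM in DMSO libraries. HNRNPF in Farage had 445, 456 and 484 CPM in treated libraries, against 422, 463 and 448 CPM in DMSO libraries. HNRNPF in SUDHL4 had 234, 248 and 226 CPM in treated libraries, against 323, 328 and 309 CPM in DMSO libraries. The groups overlapped in Farage, while treated libraries were lower in the other lines. The changes were -0.73 (SE 0.076, adjusted p = 3.95e-07), 0.05 (SE 0.076, adjusted p = 0.538) and -0.44 (SE 0.076, adjusted p = 6.92e-05) in SUDHL6, Farage and SUDHL4, and SUDHL6 differed from Farage by -0.78 (adjusted p = 3.68e-05). Median-of-ratios scaling called HNRNPF higher in Farage (0.30, adjusted p = 0.0019) and ended the call in SUDHL4 (-0.14, adjusted p = 0.109).

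On deposited CPM HNRNPH2 and HNRNPU-AS1 were called higher in one line and lower in another, as were 6.63% of all genes. With median-of-ratios scaling HNRNPH2, HNRNPAB, HNRNPF and HNRNPA1L2 were, beside 7.05% of all genes, while HNRNPU-AS1 was not called in SUDHL6 (-0.38, adjusted p = 0.0548). Under that scaling HNRNPAB and HNRNPF were called higher in Farage (0.42, adjusted p = 0.00124 and 0.30, adjusted p = 0.0019) and lower in SUDHL6, and HNRNPA1L2 was called higher in SUDHL6 and Farage and lower in SUDHL4 (-0.36, adjusted p = 0.0211). HNRNPH2, an X-linked relative of HNRNPH1, was scarce in all libraries. In SUDHL6, HNRNPH2 had 4.6, 3.69 and 2.42 CPM in treated libraries, against 2.39, 1.89 and 1.82 CPM in DMSO libraries. In Farage, HNRNPH2 had 1.21, 0.942 and 1.21 CPM in treated libraries, against 2.34, 1.92 and 2.03 CPM in DMSO libraries. In SUDHL4, HNRNPH2 had 3.98, 4.31 and 3.29 CPM in treated libraries, against 2.04, 1.8 and 2.18 CPM in DMSO libraries. Treated libraries were higher in SUDHL6 and SUDHL4 and lower in Farage, each without overlap. The changes were 0.57 (SE 0.148, adjusted p = 0.00283), -0.55 (SE 0.148, adjusted p = 0.00343) and 0.69 (SE 0.148, adjusted p = 0.000545) in SUDHL6, Farage and SUDHL4, understated by the pseudocount at this level, and Farage differed from SUDHL4 by -1.23 (adjusted p = 0.000224). With only SUDHL6 in the fit the SUDHL6 call was lost (adjusted p = 0.0667). HNRNPU-AS1 in SUDHL6 had 17.6, 17.5 and 16.3 CPM in treated libraries, against 27.4, 28.2 and 21.6 CPM in DMSO libraries. HNRNPU-AS1 in Farage had 39.6, 35.4 and 28.6 CPM in treated libraries, against 22.2, 17.1 and 22.6 CPM in DMSO libraries. HNRNPU-AS1 in SUDHL4 had 7.89, 5.52 and 6.85 CPM in treated libraries, against 4.2, 2.85 and 4.46 CPM in DMSO libraries. Counts for this locus were lower in treated SUDHL6 and higher in treated Farage and SUDHL4, without overlap, while counts for HNRNPU were lower in all 3 lines. With no strand setting given, HNRNPU-AS1 and HNRNPU may share reads. The changes were -0.55 (SE 0.165, adjusted p = 0.00712), 0.71 (SE 0.165, adjusted p = 0.00101) and 0.69 (SE 0.165, adjusted p = 0.00136) in SUDHL6, Farage and SUDHL4, and SUDHL6 differed from Farage by -1.27 (adjusted p = 0.000517). With median-of-ratios scaling the SUDHL6 call was lost (-0.38, adjusted p = 0.0548).

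In DMSO libraries 32 of 35 members differed among the lines by an F-test, against 88.2% of all genes. Between pairs of lines 17 members differed for Farage minus SUDHL6, 26 for Farage minus SUDHL4 and 29 for SUDHL6 minus SUDHL4, against 71.3%, 67.1% and 68.6% of all genes. The members' shares were 91.4% by the F-test and 48.6%, 74.3% and 82.9% for these pairs. Of the 29, 25 were higher in SUDHL6 and 4 were lower (71.4% and 11.4% of members), against 38.5% and 30.1% of all genes. On deposited CPM the median gene was higher in SUDHL6 by 0.08 and the median member by 0.36. The median-of-ratios factors were 1.125 to 1.187 in DMSO libraries of SUDHL6 and 1.053 to 1.079 in those of SUDHL4. Counts under that scaling are not given for this comparison. HNRNPU-AS1 gave the smallest p (adjusted p = 6.17e-10), with DMSO means of 25.7 ± 3.58 CPM in SUDHL6, 20.6 ± 3.08 CPM in Farage and 3.83 ± 0.862 CPM in SUDHL4. HNRNPU itself, which may share reads with HNRNPU-AS1, averaged 670 ± 69.5, 786 ± 26.2 and 327 ± 12.7 CPM in these DMSO groups. SUDHL6 exceeded SUDHL4 by 1.03 for HNRNPU (adjusted p = 1.37e-07). CLK2 averaged 62.2 ± 8.04 CPM in SUDHL6, 42 ± 2.16 CPM in Farage and 27.2 ± 0.769 CPM in SUDHL4, an order in which each step was called, with 1.16 (adjusted p = 1.03e-08) for SUDHL6 minus SUDHL4. HNRNPH1 showed the same order of lines, at 648 ± 58.6, 454 ± 11.9 and 338 ± 6.36 CPM, with 0.93 (adjusted p = 1.45e-08) for SUDHL6 minus SUDHL4. HNRNPM averaged 416 ± 23.7 CPM in Farage, 419 ± 49.5 CPM in SUDHL6 and 252 ± 7.16 CPM in SUDHL4 (0.72, adjusted p = 8.06e-07 for SUDHL6 minus SUDHL4).

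Summed over each family, SRSF genes held 2679 ± 122 CPM in treated and 2938 ± 101 CPM in DMSO libraries of SUDHL6 (SD, n = 3 each). In Farage they held 2384 ± 37.9 CPM treated and 2747 ± 26.2 CPM in DMSO, and in SUDHL4 1707 ± 76.7 CPM treated and 2187 ± 20.1 CPM in DMSO. On deposited CPM each treated library lay below each DMSO library of its line, narrowly in SUDHL6. The HNRNP genes held 5212 ± 529, 5209 ± 121 and 3678 ± 73.4 CPM in treated SUDHL6, Farage and SUDHL4, against 7309 ± 656, 6580 ± 100 and 5147 ± 113 CPM in DMSO libraries. The CLK genes held 564.3 ± 77.7, 553.7 ± 18 and 541.1 ± 22 CPM in treated libraries of the 3 lines, against 255.8 ± 10.6, 227.6 ± 1.31 and 181 ± 30.4 CPM in DMSO libraries. Sums weigh abundant genes most and are given with no test. They are on deposited CPM, where the median gene changed by -0.13, -0.22 and -0.21 in SUDHL6, Farage and SUDHL4. The median-of-ratios factors were lower in treated than in DMSO libraries of each line. The sums are not given under that scaling, so the lower SRSF sums are not shown to hold there.

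**Figure D4:**
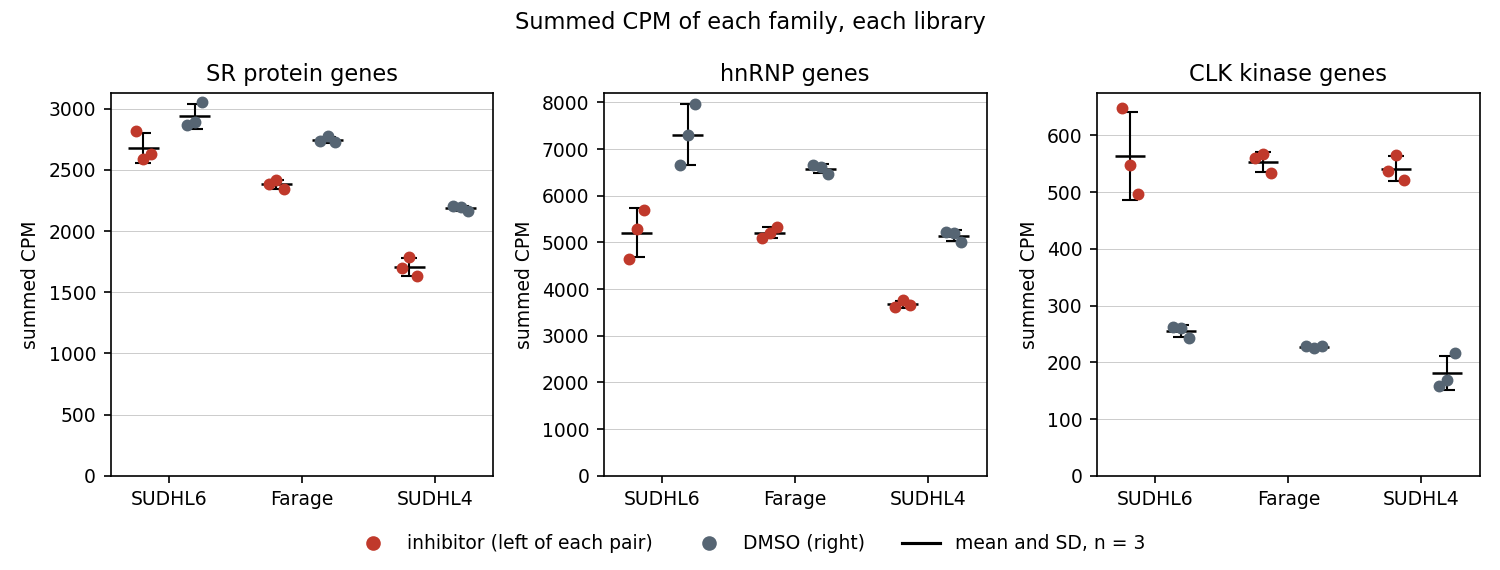
Summed CPM of the SRSF, HNRNP and CLK genes in each of the 18 libraries, treated left of DMSO in each line, with bars for the mean and SD of n = 3. On CPM as deposited, with no rescaling, the CLK sum lies higher in every treated library, at 496.5 to 649.1 CPM in SUDHL6 against 243.6 to 262.9 CPM in DMSO. The other sums lie lower on that scale.

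Values for genes that work with the members are log2 changes in the mean of the 3 lines, and the counts stand beside 30.1% of all genes called higher and 53.8% called lower, or 39.4% and 44.3% with median-of-ratios scaling. Of 13 other kinases, phosphatases and transport factors of SR proteins tested, 5 rose and 5 fell in the mean (median 0.10), and with median-of-ratios scaling 9 rose and 4 fell. SRPK1, the cytoplasmic kinase that loads SR proteins for nuclear import, fell, at -1.36 (adjusted p = 1.29e-12), while DYRK1A, a kinase found in nuclear speckles, rose, at 1.05 (adjusted p = 3.75e-12). SRPK1 averaged 142 ± 24.2, 91.1 ± 3.31 and 64.4 ± 2.7 CPM in treated SUDHL6, Farage and SUDHL4, against 302 ± 7.29, 226 ± 7.3 and 210 ± 9.85 CPM in DMSO libraries. PPP1CB and PPP1CA, catalytic subunits of protein phosphatase 1, changed by 0.64 (adjusted p = 1.22e-10) and -0.66 (adjusted p = 5.47e-09). The casein kinase CSNK1D changed by 0.91 (adjusted p = 1.41e-09) and DYRK3, with group means of at most 8.46 CPM, by -1.05 (adjusted p = 3.35e-09), with -0.84 in SUDHL6, -0.18 in Farage and -2.11 in SUDHL4.

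Among 23 SR-related genes, 10 rose and 7 fell (median 0.03; 15 and 3 with median-of-ratios scaling). SON, a core protein of nuclear speckles, rose, at 0.94 (adjusted p = 2.06e-10), SREK1 at 0.82 (adjusted p = 3.07e-10) and RBM39 at 0.62 (adjusted p = 6.55e-10), while ARGLU1, LUC7L and PNISR changed by -0.48 (adjusted p = 3.77e-08), -0.43 (adjusted p = 4.11e-07) and -0.48 (adjusted p = 2.08e-06). PNISR stood at 0.22 in SUDHL4 and LUC7L at -0.09 in SUDHL6. Of 28 other RNA-binding regulators, 9 rose and 14 fell (median -0.10; 14 and 13 with median-of-ratios scaling). The muscleblind gene MBNL2 rose, at 1.66 (adjusted p = 3.53e-10), QKI at 0.74 (adjusted p = 1.32e-11) and RBM5 at 0.66 (adjusted p = 4.17e-10), and TAF15 fell, at -0.67 (adjusted p = 1.46e-10). SYNCRIP, the relative of HNRNPR, fell, at -0.83 (adjusted p = 2.78e-12).

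Of 44 core spliceosome genes, 8 rose and 29 fell (median -0.36; 16 and 21 with median-of-ratios scaling). SNRPA, a protein of the U1 particle, fell, at -1.29 (adjusted p = 5.2e-12), and EFTUD2 and PRPF31, of the U5 and U4/U6 particles, at -1.10 (adjusted p = 9.67e-13) and -1.14 (adjusted p = 3.44e-12). The step-specific factors SLU7, DHX8 and DHX38, which act in or after the later steps of splicing, rose, at 1.19 (adjusted p = 3.34e-11), 0.76 (adjusted p = 2.44e-11) and 0.75 (adjusted p = 4.28e-11). Of 15 genes of nonsense-mediated decay, which removes transcripts with poison exons, 8 rose and 5 fell (median 0.24; 10 and 2 with median-of-ratios scaling). SMG1, SMG5 and UPF3B rose in the mean, at 0.52 (adjusted p = 6.55e-07), 0.38 (adjusted p = 5.13e-07) and 0.49 (adjusted p = 8.96e-07). By line, UPF3B stood at 0.03 and SMG5 at 0.15 in SUDHL4, and SMG1 at 0.18 in SUDHL6. MAGOHB and SMG9 fell, at -1.64 (adjusted p = 2.76e-10) and -0.88 (adjusted p = 9.72e-07), and UPF3A at -0.31 (adjusted p = 9.83e-05), which was -0.09 with median-of-ratios scaling (adjusted p = 0.181). UPF3A stood at -0.04 in Farage. The median of all genes was -0.24 beside each of these medians.

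All 9 members called higher in the mean on deposited CPM were also called higher with median-of-ratios scaling, and 18 of the 22 called lower were also called lower; the exceptions were SRSF3, SRSF10, HNRNPA0 and HNRNPA2B1. CLK1 had the largest change under both, at 1.81 and 2.05. SRSF1 stood at -1.04 and -0.79 and HNRNPA3 at -1.04 and -0.80.

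**Figure D5:**
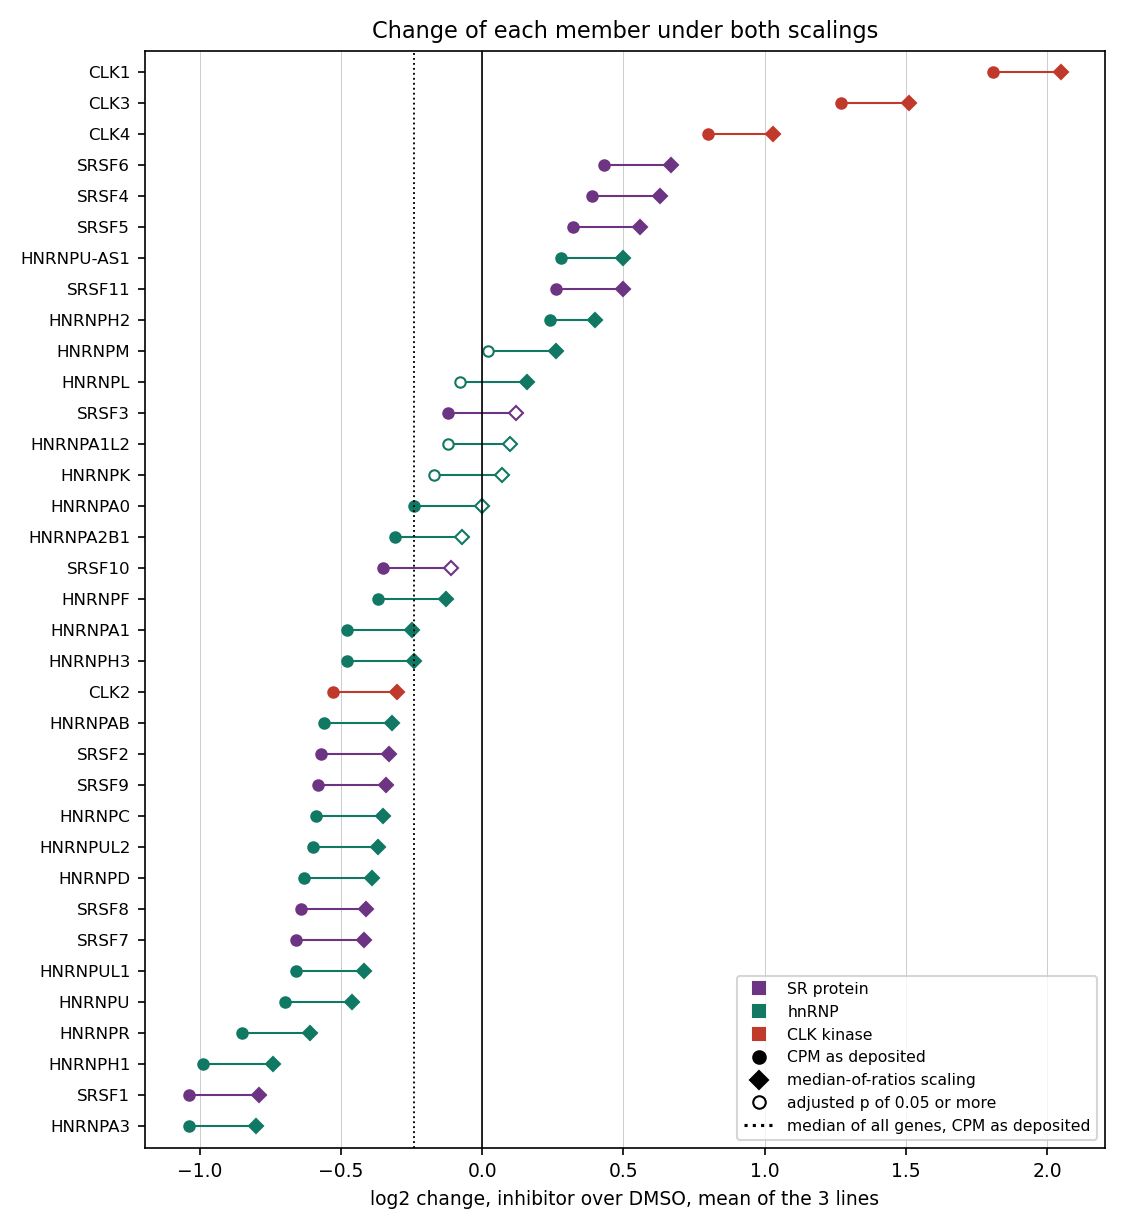
Log2 change in the mean of the 3 lines for the 35 members tested, as circles on CPM as deposited and as diamonds with median-of-ratios scaling; open symbols had an adjusted p of 0.05 or more, and the dotted line marks the median of all genes at -0.24 on deposited CPM. HNRNPL, HNRNPA1L2, HNRNPK and SRSF3 cross 0 between the scalings, and HNRNPA0 and HNRNPA2B1 come close to it.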

How the data were processed

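The 18 libraries were made with the TruSeq kit for RNA, per the labels' protocols. The submitters' processing notes name STAR and the build hg19, and a label names Rsubread; their versions, how reads were counted and whether by strand were not given in the sources used here. The authors deposited CPM per gene symbol, reads scaled to the total of each library, with 23250 symbols per library. Dividing by the smallest step gave whole reads within 0.01 for 100% of values, and the listed genes made up 74.63 to 80.72% of the divisor. A number of 3 reads, the floor for a count of 0, amount to 0.095 to 0.362 CPM across libraries, which covers counting error only.

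The members were every symbol that met the naming rule, and the other lists were written from general knowledge of splicing. Members and lists were chosen with earlier results of these data known. All SRSF and CLK genes and each HNRNP gene were to be named, with values per library for SRSF and CLK genes called in the mean or in at least 2 lines, for up to 6 HNRNP genes per direction by size of the called mean change, for members called in opposite directions and for the 5 smallest p-values of each F-test, and up to 3 genes per direction for each other list by p-value. A list gene that this rule would name is not reported here. HNRNPC and HNRNPK in SUDHL6 and HNRNPM there were given beyond this rule, after their values were seen.

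Genes with at least 1 CPM in at least 3 libraries were tested on log2(CPM + 1) with limma 3.58.1 (trend) in R 4.3.3, with 1 mean per group and 12 residual degrees of freedom, and Benjamini-Hochberg adjustment over 12769 genes. The pseudocount understates the change of low genes. Alternatives were a pseudocount of 0.25, no filter, a mean CPM of at least 5, median-of-ratios scaling, a block of replicate numbers, only the compared libraries, each library left out, both SUDHL6 replicate 3 libraries left out, a fold of at least 1.5, and edgeR 4.0.16 and DESeq2 1.42.0 on the recovered reads. Only the limma test of the mean of the 3 lines was checked on simulated data, in which few genes changed, by the same fold in each line. The tests by line, of differences between lines and the F-tests were not checked in that way. Same-numbered SUDHL6 libraries deviated together from their group means across genes (correlations of 0.425, 0.488 and 0.632), though the labels do not state a pairing. The main fit used no pairing in any line. Pairing entered only through the block of replicate numbers, an alternative that covered all 3 lines. Levels between genes were compared per kilobase of merged exons of the basic protein coding transcripts in GENCODE v29 (GRCh38). Tables were handled with pandas 2.3.3 and numpy 2.4.6 and plots drawn with matplotlib 3.10.9.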

Additional observations from a re-analysis of the deposited data

Results flagged for a closer look

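The response to the inhibitor differed between lines, by an F-test in limma over all genes, for the 16 members given here, each with its widest difference between 2 lines on the log2 scale. For the CLK genes these were -0.83 for CLK3 (SUDHL6 minus SUDHL4, adjusted p = 0.000173) and 0.75 for CLK4 (SUDHL6 minus Farage, adjusted p = 0.000342). For SRSF genes they were 0.60 for SRSF3, 0.60 for SRSF6 and 1.04 for SRSF8 (SUDHL6 minus SUDHL4, adjusted p = 0.000998, 0.00359 and 0.000948), 0.60 for SRSF7 (Farage minus SUDHL4, adjusted p = 0.00248) and 0.41 for SRSF9 (SUDHL6 minus Farage, adjusted p = 0.012). HNRNP genes with SUDHL6 above SUDHL4 were HNRNPR at 1.10, HNRNPA1L2 at 0.80 and HNRNPA0 at 0.40 (adjusted p = 1.93e-05, 0.00507 and 0.026), and those with SUDHL6 below SUDHL4 were HNRNPA1 at -0.58 and HNRNPH3 at -0.46 (adjusted p = 0.00466 and 0.0193). Farage minus SUDHL4 was 1.42 for HNRNPAB and -1.23 for HNRNPH2 (adjusted p = 3.43e-07 and 0.000224), and SUDHL6 minus Farage was -0.78 for HNRNPF and -1.27 for HNRNPU-AS1 (adjusted p = 3.68e-05 and 0.000517). With 55.9% of all genes called by the same F-test, such differences were common in these data, and no explanation was tested.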

How the results depend on the processing

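Counts of members called kept within 1.5 times of those reported under a pseudocount of 0.25, no filter, a mean CPM of at least 5 and the block of replicate numbers. With only the compared libraries in the fit, 5 members rose and 16 fell in SUDHL6, 9 and 21 in Farage and 8 and 24 in SUDHL4. Of these calls 23.8%, 30% and 25% were higher, against 40.4%, 36.2% and 35.4% of the calls for all genes. A fold of at least 1.5 left 3 higher and 7 lower in Farage (15.4% and 33.6% of all genes), 3 and 11 in the mean (14.7% and 31.9%), 5 and 15 in SUDHL4 (15.5% and 34.3%) and 4 and 13 in SUDHL6 (16.4% and 29.3%). Median-of-ratios scaling, edgeR and DESeq2 each gave 12 lower in Farage (37.2%, 37.9% and 37.5% of all genes) and 11 higher in SUDHL6 (33.1%, 34.4% and 34%). Leaving out 1 library, 7 (without Farage treated replicate 1) to 13 members differed between SUDHL6 and Farage.

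The sign turned under median-of-ratios scaling, edgeR and DESeq2, in that order, for HNRNPA1 in SUDHL4 (0.07, 0.10, 0.08), HNRNPA1L2 in the mean (0.10, 0.12, 0.12), HNRNPA2B1 in Farage (0.04, 0.03, 0.05) and SUDHL4 (0.04, 0.06, 0.05), HNRNPH3 in SUDHL4 (0.11, 0.13, 0.12), HNRNPK in Farage (0.16, 0.16, 0.17), the mean (0.07, 0.08, 0.08), SUDHL4 (0.04, 0.06, 0.05) and SUDHL6 (0.01, 0.02, 0.01), HNRNPL in Farage (0.01, 0.01, 0.02), the mean (0.16, 0.18, 0.18) and SUDHL4 (0.28, 0.30, 0.29), HNRNPM in Farage (0.12, 0.12, 0.13) and in DMSO Farage minus SUDHL6 (0.10, 0.07, 0.08), and SRSF3 in Farage (0.20, 0.20, 0.21) and the mean (0.12, 0.14, 0.13). HNRNPA0 in the mean was 0.01 with edgeR and 0.01 with DESeq2. These settings rescale each library, and the cause of the shift between scalings was not tested.

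Leaving out 1 library at a time turned the sign of 8 values near 0, which ranged from -0.06 to 0.09 for HNRNPA0 in SUDHL6, -0.38 to 0.04 for HNRNPK in SUDHL6, -0.08 to 0.01 for HNRNPL in SUDHL4 and -0.12 to 0.12 in SUDHL6, -0.01 to 0.04 for HNRNPM in the mean and -0.10 to 0.08 in DMSO Farage minus SUDHL6, -0.001 to 0.20 for SRSF5 in SUDHL6, and -0.28 to 0.07 for HNRNPH2 in SUDHL6 minus SUDHL4. Without both SUDHL6 replicate 3 libraries HNRNPL in SUDHL6 was -0.05, HNRNPH2 in SUDHL6 minus SUDHL4 was 0.02 and HNRNPM in DMSO Farage minus SUDHL6 was 0.01.

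Outside SUDHL6 the replicate numbers were not taken as pairs (correlations of 0.168, -0.128 and -0.189 in Farage and of -0.054, 0.034 and -0.073 in SUDHL4). With the block, HNRNPA1 in SUDHL4 (adjusted p = 0.0301), HNRNPH3 in SUDHL4 (0.0213), HNRNPK in SUDHL4 (0.00109) and the mean (0.000311), HNRNPL in Farage (0.00831), HNRNPAB in Farage (0.0421) and the DMSO difference of HNRNPU-AS1 for Farage minus SUDHL6 (0.0486) were called, the CLK3 difference for Farage minus SUDHL4 was lost (0.0613), and 23 members (63.4% of all genes) instead of 16 (55.9%) differed by the F-test of the response. Depth limits HNRNPH2 and the 6 members under the filter most.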
